A study of Mus musculus with 6 samples.

Results

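The Hippo pathway genes examined here were *Yap1*, *Wwtr1*, *Tead1*, *Tead2*, *Tead3*, *Tead4*, *Lats1*, *Stk3*, *Stk4* and *Sav1*. These 10 genes were taken by symbol from a table of 55414 Ensembl genes. The rule that takes them uses no measured value, but they were chosen with earlier results of these data known. The mRNA libraries came from E10.5 mouse cells labelled by *Pdx1-Cre* and a tdTomato reporter. The WT group carried *Pdx1-Cre*, tdTomato and miR-302WT, and the KO group carried *Pdx1-Cre*, tdTomato and miR-302KO, with 3 libraries in each. The *mir-302* deletion is present in the whole embryo and not only in the labelled cells, and no library without *Pdx1-Cre* or tdTomato was compared. *Pdx1-Cre* is a transgene that marks cells by their history of *Pdx1* promoter activity, so descendants that no longer express *Pdx1* stay in the sort. The labels call the cells pancreatic progenitors and name the tissue pancreas. The labels do not say whether the 3 libraries of a genotype came from separate embryos or litters, so that the p-values measure only the spread between these libraries.

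The libraries held between 17352498 and 26634523 counts, and 16353 genes passed the filter on low counts. Replicates of a genotype differed by far more than sampling noise, and the chi-square over its degrees of freedom was 25.3 to 41 for pairs of libraries. All 11 pancreatic progenitor markers on the list passed the filter, with *Pdx1* between 73.1 and 107.5 CPM (read counts scaled to library size) in the 6 libraries. The endocrine hormone gene *Gcg* ran from 899.7 to 5047 CPM in the same libraries. Markers of other cell types were also present and uneven. The summed mesenchyme markers ran from 272 to 1212 CPM in WT and from 128 to 1129 CPM in KO, and the summed blood markers from 2.35 to 13450 CPM in WT and from 0.912 to 5307 CPM in KO, so that the genotypes overlapped for both. The summed gut endoderm markers ran from 2941 to 3216 CPM in WT and from 3158 to 3516 CPM in KO, and 6 of these 11 markers, with 3 of the 11 progenitor markers, were higher in KO at an unadjusted p under 0.05, beside 6.42% of all genes. The deleted miRNA genes could not be used to check the labels, because apart from 2 counts of *Mir302d* in KO replicate 3 every library was at 0 for *Mir302a* to *Mir302d* and *Mir367*. In bulk RNA of this kind, fewer cells of a type and less RNA per cell cannot be told apart.

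The Hippo pathway is a kinase cascade that limits organ growth. MST2 and MST1, the products of *Stk3* and *Stk4*, act with the scaffold protein SAV1 to activate the LATS kinases, which phosphorylate the coactivators YAP and TAZ and thereby hold them in the cytoplasm or mark them for breakdown. Unphosphorylated YAP (*Yap1*) and TAZ (*Wwtr1*) enter the nucleus and drive transcription by binding TEAD factors, and in the embryonic pancreas this output is known for its role in progenitor growth and as a brake on endocrine differentiation. Most of this control is exerted on the proteins, which mRNA counts do not measure.

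The miR-302 family silences mRNAs that carry a match to its seed, the short stretch near the 5′ end of the miRNA that pairs with 3′UTRs. The RefSeq sequences of 3 mature 3p arms are shown because they set the motif that was searched in the Hippo genes, with the shared seed AAGUGCU in capitals. They lie on the plus strand of chromosome 3 in GRCm38.p6, at chr3:127545275-127545297 for miR-302b-3p, chr3:127545406-127545427 for miR-302c-3p and chr3:127545665-127545687 for miR-302d-3p.
miR-302b-3p: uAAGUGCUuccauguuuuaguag
miR-302c-3p: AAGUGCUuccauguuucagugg
miR-302d-3p: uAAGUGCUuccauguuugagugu
The shared seed takes bases 2 to 8 of miR-302b-3p and miR-302d-3p. The miR-302c-3p entry starts 1 base later, so that the same letters are its bases 1 to 7.

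Of the 10 genes, *Lats1*, *Stk4* and *Wwtr1* held 1 seed match each in the longest annotated 3′UTR (GENCODE M21), and the other 7 held none. The motifs searched were AGCACTT, AGCACTTA and GCACTTA on the transcript strand, and the first is contained in the second, as is the third. At least 1 of these motifs occurred in 20.6% of the 13768 tested genes with a 3′UTR. The matches are shown with their motif in capitals, and they mark letters in the sequence, not sites shown to be used.
*Lats1*, bases 1146 to 1152 of a 3′UTR of 3450 bases: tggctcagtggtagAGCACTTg
*Stk4*, bases 56 to 62 of 3693: catgtctgttagccAGCACTTc
*Wwtr1*, bases 1898 to 1904 of 3277: ttgctctctctctgAGCACTTc

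Set against each other by length, the 10 genes covered a wide range, with *Tead2* highest and *Sav1* close to 0 (levels given as CPM per kilobase of the longest coding transcript, over all 6 libraries). *Tead2* averaged 44.9 ± 3.54 CPM per kilobase (SD, n = 6), and its lowest library, at 39.4, lay above the highest library of any other of the 10 genes. The upstream kinases followed, with *Stk4* at 24.04 ± 3.41 and *Stk3* at 18.5 ± 0.919, and the lowest library of *Stk4*, at 19.69, was just above the highest of *Stk3*, at 19.65. *Wwtr1* at 4.69, *Yap1* at 4.65, *Lats1* at 3.29, *Tead3* at 1.96 and *Tead4* at 1.10 CPM per kilobase formed a middle group in which each range overlapped that of the next. *Tead1* at 0.343 and *Sav1* at 0.0710 were set apart at the lower end. The order went with GC content. The most GC-rich 200 bases of the transcript were 60.5 to 72.5% GC in *Tead2*, *Stk4*, *Stk3* and *Wwtr1*. The other genes, all with lower means, had 77 to 86% there, with *Sav1* at 82.5%. The part of GC content in these levels was not tested. With the length of all merged exons in place of the longest transcript, *Lats1* came before *Yap1* and *Tead4* before *Tead3*, and the other genes kept their order. By this length *Stk3* was at 8.80, *Yap1* at 2.09 and *Tead3* at 0.809 CPM per kilobase.

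**Figure D1:**
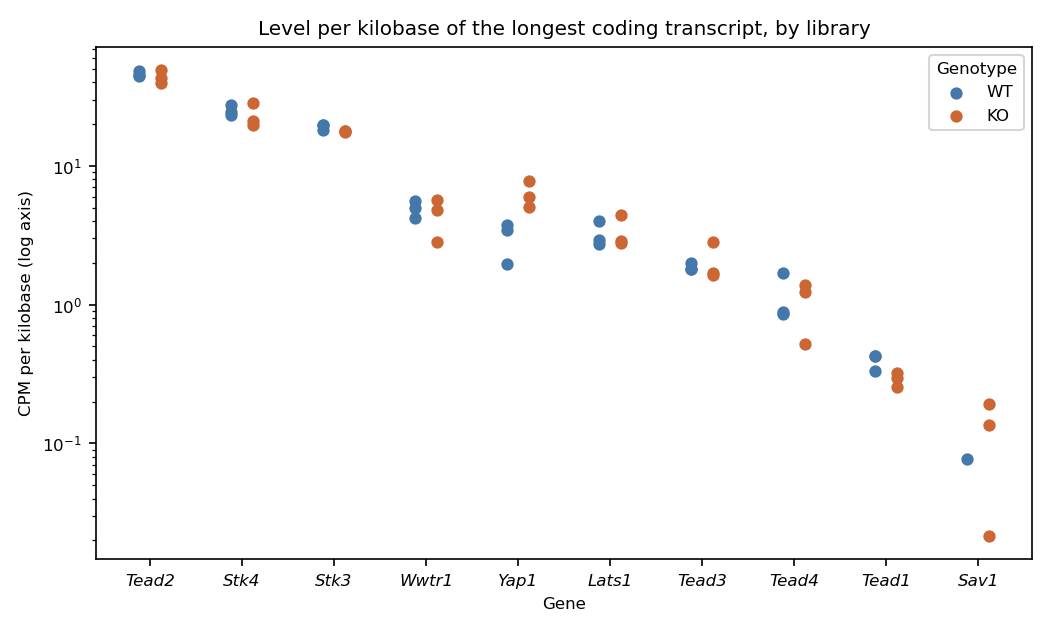
Levels of the 10 Hippo genes in each library, as CPM per kilobase of the longest coding transcript on a log axis, with WT and KO libraries as separate points. *Tead2* stands at the top between 39.4 and 48.8 and *Tead1* at the lower end between 0.257 and 0.426, while the 2 WT libraries of *Sav1* at 0 cannot be drawn on this axis.

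Among these genes *Yap1* was the one in which KO and WT libraries stood apart most. *Yap1* was 2.05-fold higher in KO, the fitted ratio of KO to WT in the other 8 tested genes lay between 0.743 (*Tead1*) and 1.10 (*Tead3*), and *Sav1* was too low to test. Of the 9 genes tested, 0 passed an adjusted p of 0.05 in edgeR, where 0% of all 16353 genes did. At an unadjusted p under 0.05 the edgeR test held 1 of the 9, *Yap1*, beside 10.4% of all genes (6.42% higher and 3.97% lower in KO). DESeq2 called 1 gene of the 10 at an adjusted p under 0.05, again *Yap1*, beside 4.87% of all genes. Across the 9 genes 3 were higher and 6 lower in KO. Their median log2 fold change was -0.10, beside -0.025 over all genes. The genotypes did not overlap in 3 of the 9 (*Yap1* above, *Stk3* and *Tead1* below), beside 16.4% of all genes.

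The upstream kinases were abundant and close to even between the genotypes. *Stk3*, which encodes MST2, measured 57.3, 52.6 and 57.1 CPM in WT replicates 1 to 3 and 52.0, 52.3 and 51.4 CPM in KO replicates 1 to 3. All 3 KO libraries thus lay below all 3 WT libraries, which happened in this direction in 7.99% of all genes, but the gap to the lowest WT library was small. For *Stk3* the log2 fold change was -0.10 (SE 0.09, 95% interval -0.31 to 0.11, edgeR adjusted p = 0.812). *Stk4*, which encodes MST1, measured 128.5, 120.8 and 142.6 CPM in WT and 103, 110.9 and 148.8 CPM in KO. The KO libraries spread more widely, with KO replicate 3 above every WT library and the other two below them, and the log2 fold change was -0.11 (SE 0.15, 95% interval -0.46 to 0.23, adjusted p = 0.888). Without KO replicate 3 it was -0.25 (unadjusted p = 0.0432, edgeR adjusted p = 0.423). *Stk4* made up 56.6 ± 1.37% of the summed per-kilobase level of the pair in WT and 56.1 ± 4.92% in KO (SD, n = 3 each), and the groups overlapped.

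*Lats1* encodes a kinase that phosphorylates YAP and TAZ directly, and its genotype means differed by less than the spread between libraries. It measured 21.1, 28.7 and 19.8 CPM in WT and 20.2, 20.7 and 31.8 CPM in KO, and 1 library of each genotype was well above the other two. The log2 fold change was 0.064 (SE 0.23, 95% interval -0.48 to 0.61, edgeR adjusted p = 0.966), and its sign turned under GC offsets, to -0.27. *Lats2*, its paralogue, is not among the 10 genes and is given here for comparison. *Lats2* measured 9.57, 10.8 and 12.2 CPM in WT and 13.2, 10.54 and 15.6 CPM in KO, with a log2 fold change of 0.27 (SE 0.20, 95% interval -0.20 to 0.74, adjusted p = 0.748). Its genotypes overlapped, as did the per-kilobase ratio of *Lats1* to *Lats2*, at 1.56 ± 0.377 in WT and 1.33 ± 0.195 in KO. *Lats2* held 2 seed matches in a 3′UTR of 1626 bases, shown here because *Lats2* is the LATS gene that holds the longest match, which carries the extra A.
*Lats2*, bases 195 to 202: tacagtatggaaagAGCACTTA
*Lats2*, bases 294 to 300: gtgttgtatctgatAGCACTTg
In the annotation 42.4% of the exon bases of *Lats2* are shared with *Gm49361* on the same strand, so that its counts are uncertain.

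*Sav1*, the scaffold of the kinase pair, had counts of 0, 0 and 4 in WT and 13, 6 and 1 in KO, 24 in all. 3 of the 6 libraries were at 3 counts or fewer, the filter removed the gene, and the KO and WT ranges overlapped. No fold change is given. Of its annotated exon bases 25.4% overlap *Atl1* on the opposite strand, and whether the counting used strand is not given in the sources used here.

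The coactivators differed in their values, with KO above WT for *Yap1* and overlapping groups for *Wwtr1*. *Yap1* measured 8.20, 14.3 and 15.6 CPM in WT and 32.2, 25.01 and 21.01 CPM in KO (12.7 ± 3.96 and 26.1 ± 5.65 CPM, mean ± SD, n = 3 each), from counts of 174, 256 and 322 in WT and 863, 439 and 386 in KO. Every KO library lay above every WT library, as in 8.36% of all genes. Between the genotypes the log2 fold change was 1.04 (SE 0.28, 95% interval 0.39 to 1.69), with an unadjusted p of 0.00669 and an adjusted p of 0.201 in edgeR. DESeq2 gave 1.06 with an adjusted p of 0.00555. The part of the gut endoderm markers that were also higher in KO in this value was not tested. An exact permutation test of 3 against 3 libraries could not have gone below p = 0.1.

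The *Yap1* value depended on how the GC content of transcripts was handled. The most GC-rich 200 bases of *Yap1*, at bases 132 to 331 of a transcript of 4115 bases, were 82% G or C. A stretch of at least 75% occurred in 26.3% of tested genes with a transcript sequence, in 80% of those higher in KO at an unadjusted p under 0.05 and in 18% of those lower. With per-library offsets for this GC share, the *Yap1* log2 fold change was 0.65 (edgeR adjusted p = 0.406), and in DESeq2 with such offsets 0.66 (adjusted p = 0.156). In the fit without offsets the 5 tested genes of the 10 with such a stretch (*Yap1*, *Lats1*, *Tead1*, *Tead3* and *Tead4*) had a median log2 fold change of 0.064 and the 4 without it (*Stk3*, *Stk4*, *Wwtr1* and *Tead2*) of -0.11. Among 64 other tested genes of the pathway the median was 0.22 in the 35 with such a stretch and -0.066 in the 29 without it.

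The library codes in the labels start with H8 for WT replicates 1 and 2 and KO replicate 1, and with H9 for the rest. The codes of WT replicate 2 (H841D) and KO replicate 1 (H841C) differ only in their last letter. What the codes mark is not stated. *Yap1* was higher in KO within H8 and within H9, at 11.3 against 32.2 CPM for H8 (log2 ratio 1.52, 2 WT and 1 KO libraries) and at 15.6 against 23.0 CPM for H9 (0.557, 1 WT and 2 KO libraries). A test within H8 or H9 was not run, with a single library in 1 arm of each.

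*Wwtr1*, which encodes TAZ, measured 23.1, 19.8 and 26.4 CPM in WT and 22.7, 13.2 and 26.7 CPM in KO. KO replicate 2 was the lowest library, KO replicate 1 fell within the WT range and KO replicate 3 was just above it. The log2 fold change was -0.15 (SE 0.26, 95% interval -0.77 to 0.47, edgeR adjusted p = 0.928), and without KO replicate 2 it was 0.11. KO replicate 2 also had the lowest summed mesenchyme markers, 128 CPM beside 272 to 1212 CPM in the other libraries, with *Col1a1* and *Col3a1* at 0. Of the 10 mesenchyme markers 7 were tested in edgeR and 0 differed at an unadjusted p under 0.05, beside 10.4% of all genes. The same library was lowest for the summed liver markers (988.9 CPM beside 1031 to 2236), endothelial markers (1.65 CPM beside 4.19 to 27.8) and blood markers (0.912 CPM beside 2.35 to 13450). Its sums were highest for the endocrine (5815 CPM beside 1178 to 5329), pancreatic progenitor (1067 CPM beside 800 to 968), gut endoderm (3516 CPM beside 2941 to 3248) and neural markers (49.2 CPM beside 23.2 to 44.0). Among the liver markers *Alb*, *Afp* and *Apoa2* were lowest in KO replicate 2, *Ttr* was highest there and the others were neither. Most of its endocrine sum was *Gcg*, at 5047 CPM. The part of these markers in the *Wwtr1* value was not tested.

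**Figure D2:**
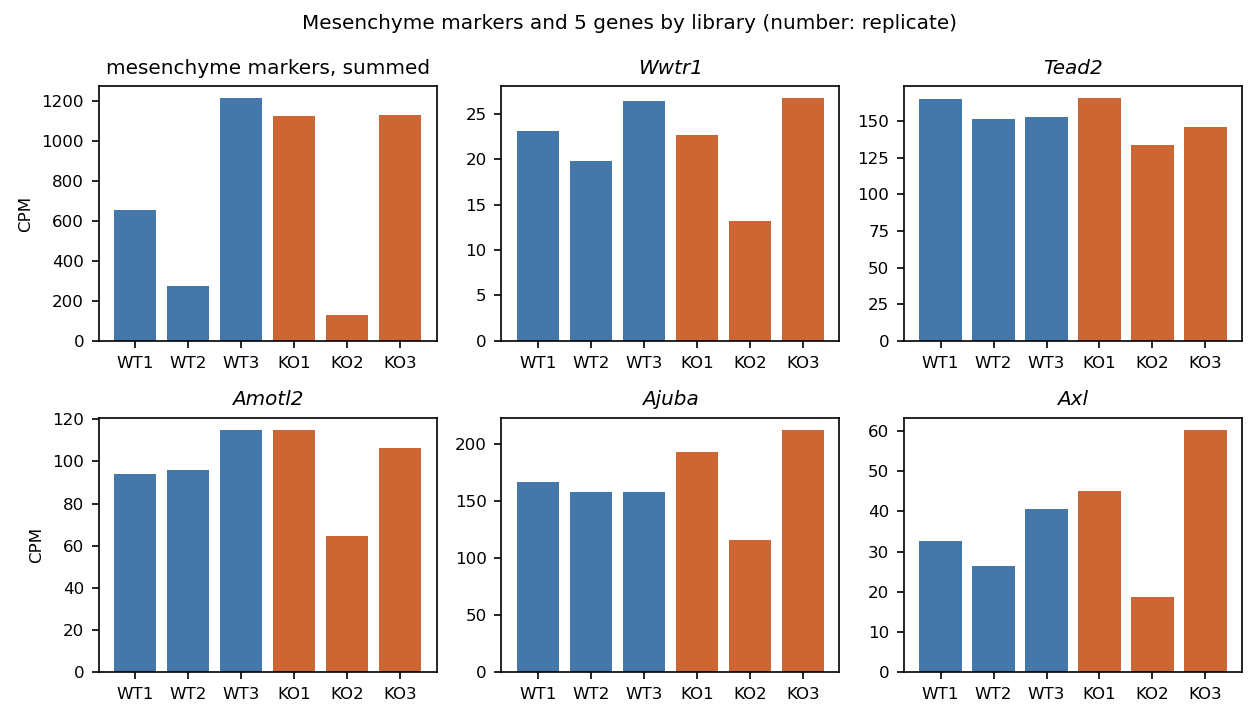
Bars from 0 give CPM in each of the 3 WT and 3 KO libraries for the summed mesenchyme markers and for *Wwtr1*, *Tead2*, *Amotl2*, *Ajuba* and *Axl*, the last of these with *Ajuba* chosen after their values were seen. KO replicate 2 has the lowest bar in each panel, with 128 CPM of mesenchyme markers and 13.2 CPM of *Wwtr1*.

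The balance of the coactivators did not overlap between the genotypes, while *Wwtr1* by itself did. Of the pair only *Yap1* held a stretch of at least 75% GC, and the balance was not computed with GC offsets. *Yap1* made up 28.5, 44.8 and 40.0% of the summed per-kilobase level of *Yap1* and *Wwtr1* in WT and 61.5, 68.1 and 47.0% in KO (37.8 ± 8.37% and 58.8 ± 10.8%, SD, n = 3 each). The ratio of *Wwtr1* to *Yap1* was 2.51, 1.23 and 1.5 in WT and 0.627, 0.469 and 1.13 in KO. Which of these genes was higher in KO depended on the transcript length used, since with merged exons the ratio was 5.47, 2.69 and 3.27 in WT and 1.37, 1.02 and 2.46 in KO, above 1 in every library. The *Yap1* share with merged exons was 15.5, 27.1 and 23.4% in WT and 42.25, 49.4 and 28.9% in KO, again without overlap. Their sum was 6.89, 7.65 and 9.37 CPM per kilobase in WT and 12.5, 8.81 and 10.7 in KO, and here the groups overlapped.

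**Figure D3:**
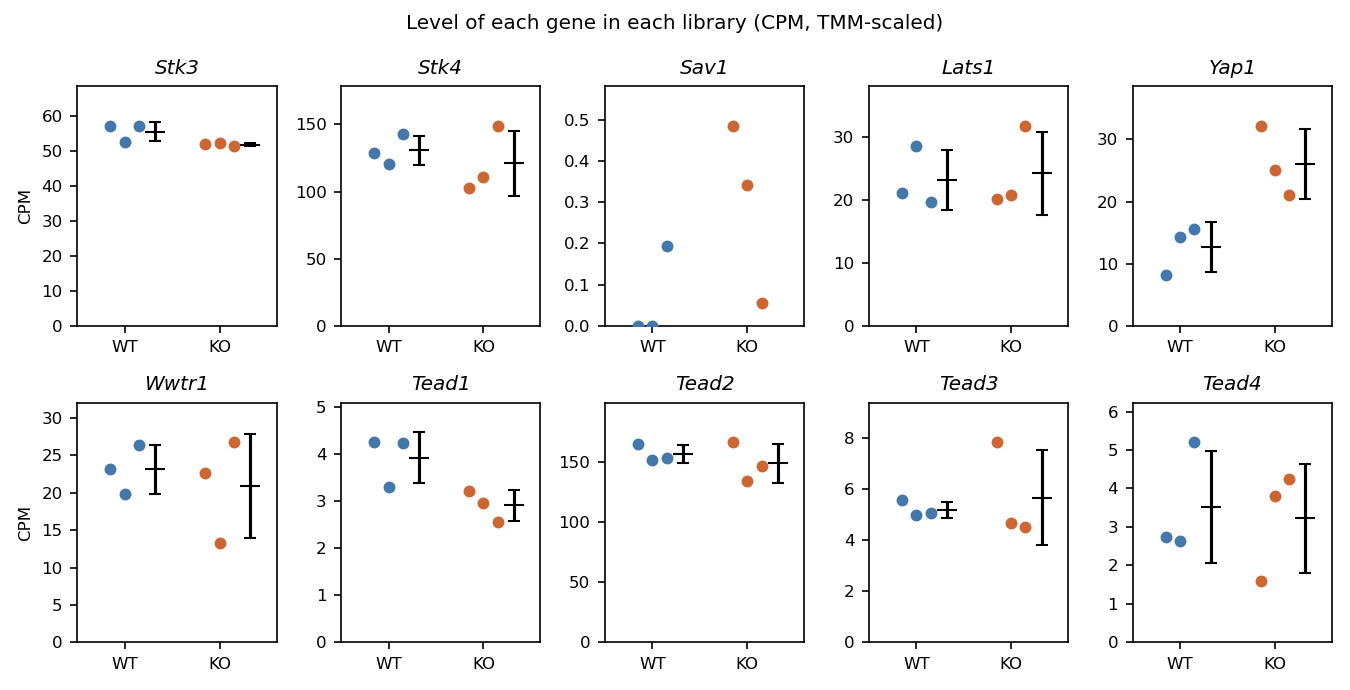
CPM of each of the 10 Hippo genes in the 3 WT and 3 KO libraries, with a linear axis from 0 in each panel, points for libraries and mean ± SD beside them (none for *Sav1*). The genotypes do not overlap in *Yap1* (KO 21.01 to 32.2, WT 8.20 to 15.6 CPM), *Stk3* and *Tead1*, and overlap in the other panels.

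Among the TEAD factors, the DNA-binding partners of YAP and TAZ, *Tead2* made up nearly all of the mRNA in both genotypes. Its share of the summed per-kilobase level of the 4 *Tead* genes was 93.1 ± 0.990% in WT and 92.8 ± 0.314% in KO (SD, n = 3 each). The most GC-rich stretch was 72.5% GC in *Tead2*, beside 86% in *Tead1* and 77% in both *Tead3* and *Tead4*. The share was not computed with GC offsets, and the part of GC content in it was not tested. *Tead2* measured 164.9, 151.3 and 152.7 CPM in WT and 165.8, 133.8 and 146 CPM in KO. Its groups overlapped, with a log2 fold change of -0.073 (SE 0.10, 95% interval -0.30 to 0.15, edgeR adjusted p = 0.887), and without KO replicate 2 it was 0.015.

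*Tead1* had the lowest level of the *Tead* genes per kilobase. It measured 4.24, 3.30 and 4.22 CPM in WT and 3.21, 2.96 and 2.56 CPM in KO, from 47 to 90 counts per library. All KO libraries lay below all WT libraries, though by little at the nearest pair. For *Tead1* the log2 fold change was -0.43 (SE 0.24, 95% interval -0.995 to 0.14, unadjusted p = 0.117, edgeR adjusted p = 0.622). With GC offsets it was -0.83 (unadjusted p = 0.0125, adjusted p = 0.288).

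*Tead3* measured 5.56, 4.97 and 5.05 CPM in WT and 7.83, 4.67 and 4.52 CPM in KO. KO replicate 1 was high and the other two KO libraries were below the WT range, with a log2 fold change of 0.13 (95% interval -0.50 to 0.77, edgeR adjusted p = 0.936). *Tead4* measured 2.73, 2.63 and 5.195 CPM in WT and 1.603, 3.82 and 4.25 CPM in KO. Its libraries differed by more within each genotype than between the genotype means, and the log2 fold change was -0.14 (95% interval -1.19 to 0.92, adjusted p = 0.961). For *Tead4* the data thus leave differences of over 1 log2 unit downward within the interval.

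**Figure D4:**
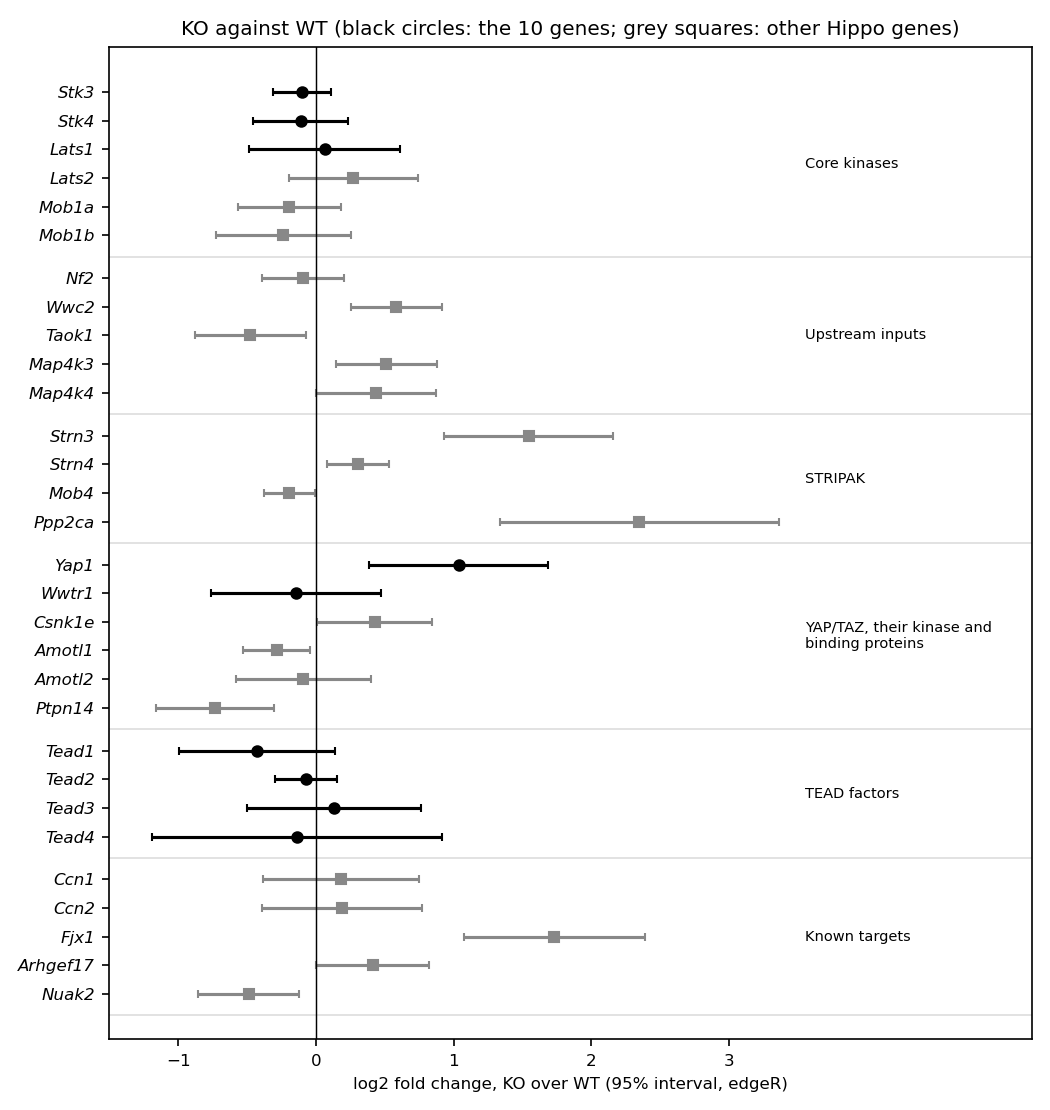
Log2 fold change (KO over WT) with 95% intervals from edgeR for the tested Hippo genes named by rule, with black circles for the 10 genes and grey squares for the others. The interval of *Yap1* lies between 0.39 and 1.69, and the intervals of the other 8 tested genes of the 10 include 0.

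The 3 genes with a seed match had log2 fold changes of 0.064 (*Lats1*), -0.11 (*Stk4*) and -0.15 (*Wwtr1*), and the 6 tested genes without one had a median of -0.087. None of the 3 differed between the genotypes at an unadjusted p under 0.05 in edgeR, beside 10.4% of all genes. DESeq2 called 0 of the 3, beside 4.87% of all genes. With only 3 genes these counts cannot show whether a match mattered. *Yap1*, the gene that differed most, held no match in its 3′UTR.

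The genes whose profile over the 6 libraries was most like that of *Yap1* were *Cpox*, an enzyme of haem synthesis, *Prkcb*, a protein kinase C, *Ccdc60*, *2310002F09Rik* and *Khsrp*, which encodes a KH-domain RNA-binding protein. Their root mean square difference from *Yap1* in centred log2 CPM was 0.0828, 0.141, 0.142, 0.143 and 0.156, beside a median of 0.686 over 16352 genes. *Cpox* measured 15.7, 27.1 and 26.7 CPM in WT and 66.9, 47.8 and 39.9 CPM in KO, and so shared the low WT replicate 1 and the high KO replicate 1 of *Yap1*. *Ccdc60* and *2310002F09Rik* were low, at 0.377 to 1.34 and 0.707 to 2.53 CPM. The richest 200 bases were 80% GC in *Cpox* and 86% in *Khsrp*, but 70.5% in *Prkcb* and 63.5% in *Ccdc60*.

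Of 68 further genes of the Hippo pathway, 64 were tested, of which 33 were higher and 31 lower in KO (median log2 fold change 0.015). In edgeR 0 passed an adjusted p of 0.05, and 14 had an unadjusted p under 0.05 (9 higher, 5 lower, beside 6.42% and 3.97% of all genes), or 11 (4 higher) with GC offsets, 7 without KO replicate 1 and 9 without WT replicate 1. The genotypes did not overlap in 20 of the 64 (12 above, 8 below), beside 16.4% of all genes. DESeq2 called 5 as higher and 1 as lower, beside 4.22% and 0.648% of all genes. All 9 higher genes held a GC-rich stretch, as did 3 of the 5 lower ones and 35 of the 64 tested. A seed match was present in 3 of the 9 higher genes, in 4 of the 5 lower ones and in 20 of the 64.

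The kinase cassette around LATS was close to even. Of its 5 further genes 0 had an unadjusted p under 0.05 in edgeR and 0 were called by DESeq2, beside 10.4% and 4.87% of all genes. The MOB1 genes, whose products are LATS cofactors, had log2 fold changes of -0.19 (*Mob1a*, 182.0 ± 19.3 CPM in WT and 159.1 ± 34.9 in KO) and -0.24 (*Mob1b*, 16.8 ± 4.24 and 14.2 ± 1.54). *Nf2*, the membrane-associated activator of the pathway, measured 118.3 ± 4.95 CPM in WT and 110.8 ± 20.0 in KO, a log2 fold change of -0.094. The genotypes overlapped in each of these genes. Without KO replicate 3 the values of *Mob1a* and *Nf2* were -0.35 and -0.22, with unadjusted p-values of 0.0227 and 0.0299 and edgeR adjusted p-values of 0.321 and 0.368.

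Among 16 upstream inputs, 3 were higher and 1 lower in KO at an unadjusted p under 0.05, beside 6.42% and 3.97% of all genes. *Wwc2*, a KIBRA family member that promotes LATS activity, measured 37.9, 42.6 and 37.3 CPM in WT and 62.1, 48.7 and 65.7 CPM in KO, without overlap. Its log2 fold change was 0.58 (SE 0.14, edgeR adjusted p = 0.167, DESeq2 adjusted p = 0.00635), and 0.26 with GC offsets. *Map4k3*, a MAP4K kinase that can act in parallel to MST, had a log2 fold change of 0.51 (edgeR adjusted p = 0.264, DESeq2 adjusted p = 0.0442), and 0.14 with GC offsets. *Map4k4* had 0.44 (edgeR adjusted p = 0.477), and 0.042 with GC offsets. *Taok1*, a kinase upstream of MST, measured 35.3, 30.9 and 39.6 CPM in WT and 21.9, 23.8 and 30.4 CPM in KO, with all KO libraries below WT and a log2 fold change of -0.48 (edgeR adjusted p = 0.364), and -0.82 with GC offsets.

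STRIPAK, the phosphatase complex that switches MST off, was mixed in direction. Of its 12 genes KO was above WT in 5 and below it in 7. The median of their log2 fold changes was -0.050. In edgeR 3 were higher and 1 lower at an unadjusted p under 0.05, beside 6.42% and 3.97% of all genes. All KO libraries lay above WT in 3 genes and below WT in 3 (*Mob4*, *Ppp2r1a* and *Ppp2cb*, the last at a log2 fold change of -0.34). The complex also held the gene with the largest fold change among the 64 further genes tested. *Ppp2ca*, a catalytic subunit of protein phosphatase 2A, measured 26.8, 64.4 and 28.2 CPM in WT and 281.0, 205.7 and 119.4 CPM in KO. The log2 fold change was 2.35 (SE 0.43, edgeR adjusted p = 0.132, DESeq2 adjusted p = 0.00119). *Ppp2ca* held 4 seed matches, and 41.3% of its exon bases overlap other annotated genes. *Strn3*, a striatin scaffold of the complex, measured 29.7, 51.3 and 30.7 CPM in WT and 139.4, 97.3 and 88.7 CPM in KO, with a log2 fold change of 1.54 (SE 0.26, edgeR adjusted p = 0.132, DESeq2 adjusted p = 2.36e-07).

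In both genes WT replicate 2 was the highest WT library. Without it their edgeR adjusted p-values were 0.0338 and 0.0315, and with all libraries but with GC offsets their log2 fold changes were 1.97 and 1.15. The other STRIPAK genes under an unadjusted p of 0.05 were *Strn4*, at 204.2 ± 23.3 CPM in WT and 252.3 ± 4.84 in KO (log2 fold change 0.31), and *Mob4*, at 76.6 ± 1.99 and 67.0 ± 2.94 CPM (-0.19), with edgeR adjusted p-values of 0.281 and 0.460. With GC offsets the *Strn4* value turned to -0.055 and that of *Mob4* was -0.51.

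Of the YAP-binding proteins and TEAD cofactors 10 of 12 were tested. At an unadjusted p under 0.05, 0 were higher and 2 lower in KO, beside 6.42% and 3.97% of all genes. *Ptpn14*, a phosphatase that binds and retains YAP, measured 19.5, 21.5 and 26.5 CPM in WT and 11.4, 15.2 and 14.0 CPM in KO. All KO libraries lay below WT, with a log2 fold change of -0.73 (SE 0.18, edgeR adjusted p = 0.174, DESeq2 adjusted p = 0.0146), and -0.69 with GC offsets. *Amotl1*, a motin that tethers YAP at junctions, was at 52.2 ± 2.07 CPM in WT and 42.8 ± 2.87 in KO (log2 fold change -0.29, edgeR adjusted p = 0.375). *Amotl2*, its paralogue, was at 101.6 ± 11.6 and 95.2 ± 26.8 CPM, with KO replicate 2 lowest at 64.6. Among the 4 turnover genes, *Csnk1e*, a casein kinase 1 gene, was higher in KO at an unadjusted p of 0.0468, with a log2 fold change of 0.43 that was 0.043 with GC offsets.

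Of 22 genes taken as YAP and TAZ targets, 20 were tested. In KO 14 were higher and 6 lower, with 45.6% of all genes higher, and their median log2 fold change was 0.16, beside -0.025 over all genes. At an unadjusted p under 0.05 the edgeR test held 2 higher and 2 lower, beside 6.42% and 3.97% of all genes. The lower ones were *Nuak2* and *Ptpn14*, and *Ptpn14* is the gene already counted among the YAP-binding proteins. *Lats2* and *Amotl2* were likewise counted both here and above. *Ccn1* and *Ccn2*, secreted matricellular proteins and the most used readouts of YAP activity, were at 76.3 ± 27.7 and 9.60 ± 2.84 CPM in WT and at 86.4 ± 10.9 and 10.9 ± 0.726 CPM in KO. Their log2 fold changes were 0.18 (95% interval -0.39 to 0.75) and 0.19 (-0.39 to 0.77), and both overlapped between the genotypes. Of the annotated exon bases of *Ccn2* 23.2% overlap *Gm15270* on the opposite strand, and whether the counting used strand is not given. Without WT replicate 2, the highest library at 107.6 CPM, the *Ccn1* value was 0.53 (unadjusted p = 0.0132, edgeR adjusted p = 0.269). *Ankrd1*, another target, had 0, 0 and 7 counts in WT and 5, 0 and 13 in KO and was not tested.

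*Fjx1*, which encodes a four-jointed family protein, was the target with the largest difference. It measured 9.24, 11.7 and 5.88 CPM in WT and 32.7, 33.3 and 23.1 CPM in KO, without overlap. The log2 fold change was 1.73 (SE 0.28, edgeR adjusted p = 0.132, DESeq2 adjusted p = 1.45e-07), and 1.35 with GC offsets. *Arhgef17*, with 2 matches of the longest motif in its 3′UTR, was at 21.6 ± 4.32 CPM in WT and 28.7 ± 1.87 in KO (log2 fold change 0.41, edgeR adjusted p = 0.479, and 0.038 with GC offsets). *Nuak2*, a kinase gene, was lower in KO, at 52.2 ± 7.58 and 37.2 ± 5.09 CPM (log2 fold change -0.49, edgeR adjusted p = 0.294).

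**Figure D5:**
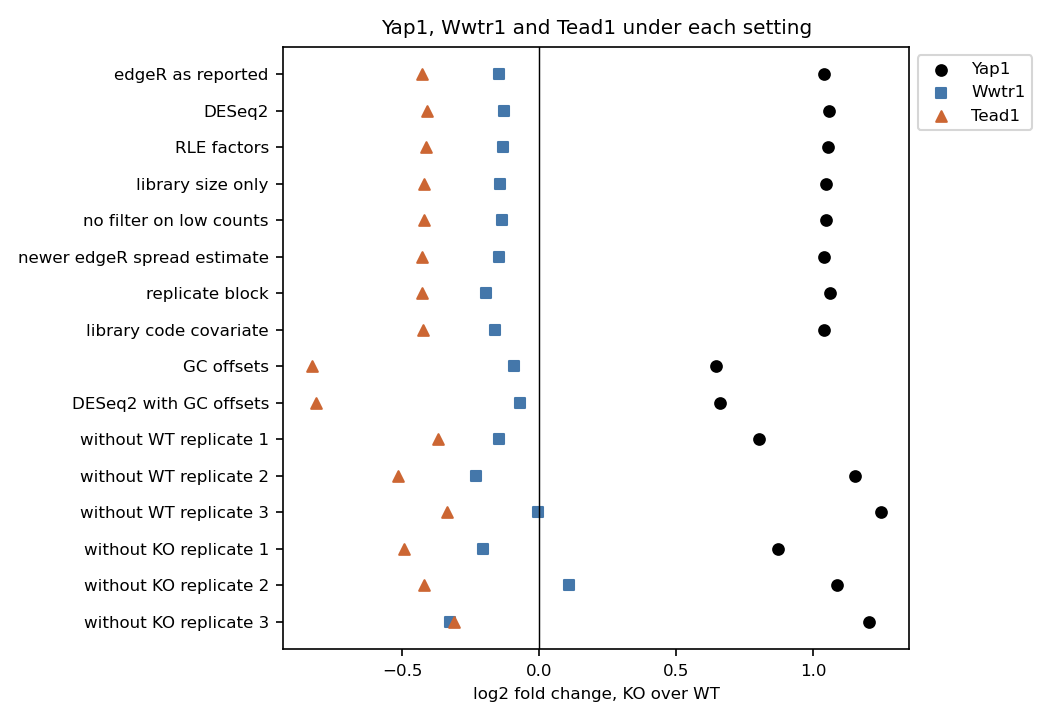
Log2 fold change (KO over WT) of *Yap1*, *Wwtr1* and *Tead1* in the edgeR fit as reported (top row) and under each of the 15 alternatives. *Yap1* lies between 0.65 and 1.25, *Tead1* between -0.83 and -0.31, and *Wwtr1* crosses 0 without KO replicate 2.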

How the data were processed

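Polyadenylated RNA of sorted E10.5 cells was amplified with SMART-seq v4 and made into Nextera XT libraries. The authors used STAR on GRCm39 and GenomicAlignments for counting, and the deposited values are raw read counts per gene. The submitters' processing notes also name DESeq2. Versions, gene annotation, strand and the handling of shared reads are not given in the sources used here.

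From these counts edgeR 4.0.16 (R 4.3.3) was run over all genes (filterByExpr, TMM normalization, then glmQLFit followed by glmQLFTest), with genotype as the only term, and p-values were adjusted by Benjamini-Hochberg over all genes tested with a threshold of 0.05. CPM values use the TMM-scaled library sizes. Prior degrees of freedom were 3.26. DESeq2 1.42.0, RLE factors, library size alone, no filter, the newer edgeR spread estimate, a replicate block, a library code term, GC offsets (a smoothing spline with 6 degrees of freedom per library on the GC share of the richest 200 bases) and leaving out each library were the alternatives, and DESeq2 with GC offsets was added after the data were seen. The scripts were tested on simulated data. Symbols were found for 94% of identifiers. Transcript lengths, 3′UTRs and GC shares came from GENCODE M21 (GRCm38), so no coordinates of the counted genes are given, and 84.7% of tested genes had a coding transcript.

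The 10 genes and the lists were chosen with earlier results of these data known. All 10 were named, with the other Hippo genes at an unadjusted p under 0.05 and *Lats2*, *Nf2*, *Mob1a*, *Mob1b*, *Ccn1*, *Ccn2*, *Ankrd1* and *Amotl2* whatever their values. The 5 genes most like the gene of smallest p were named by root mean square difference.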

Additional observations from a re-analysis of the deposited data

How the results depend on the processing

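Of the 10 genes, DESeq2 called 1 (*Yap1*) where edgeR called 0, and 0 to 0 were called when single libraries were left out. The count at an unadjusted p under 0.05 was 1, and it was 2 with GC offsets and with DESeq2 and GC offsets (*Tead1* joined), and 1 to 2 without single libraries (*Stk4* joined without KO replicate 3). Over all genes edgeR called 0, DESeq2 699 (606 higher), the fit with no filter 264 (241 higher), DESeq2 with GC offsets 571 (413 higher), and leaving out single libraries gave 0 to 217, the last without WT replicate 2. The 14 further Hippo genes became 7 to 17 without single libraries, with 7 without KO replicate 1 and 9 without WT replicate 1. *Yap1* kept its direction and an unadjusted p under 0.05 in all 15 settings, with log2 fold changes of 0.65 to 1.25 and adjusted p-values of 0.00555 to 0.565. With a replicate block, 1 of the 10, 11 of the further genes (8 higher) and 0 of all genes were counted, and the *Yap1* log2 fold change was 1.06 (edgeR adjusted p = 0.368). Same-numbered libraries correlated at -0.211, 0.251 and 0.0779 in their deviations, and the other pairs of a WT and a KO library at -0.307 to 0.336. With 3 libraries per genotype these values cannot show whether same-numbered libraries were paired.

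An adjusted p under 0.05 was reached by 7 of the 30 named genes in DESeq2, 6 in DESeq2 with GC offsets, 3 with no filter and 3 without WT replicate 2, beside 0 in edgeR as reported. Of 450 log2 fold changes of 30 genes, 21 changed sign, 0 of them with an unadjusted p under 0.05. With GC offsets these were *Lats1* -0.27, *Tead3* -0.0088, *Strn4* -0.055 and *Lats2* -0.032. With DESeq2 and GC offsets they were *Stk4* 0.0096, *Lats1* -0.25, *Strn4* -0.041, *Lats2* -0.019 and *Amotl2* 0.015. Leaving out 1 library gave *Stk4* 0.0012, *Tead3* -0.16 and *Tead4* 0.20 without KO replicate 1, *Wwtr1* 0.11, *Tead2* 0.015 and *Amotl2* 0.14 without KO replicate 2, *Lats1* -0.14 without KO replicate 3, *Ccn2* -0.032 without WT replicate 1, and *Lats1* -0.0055, *Tead4* 0.29, *Mob1b* 0.024 and *Amotl2* 0.038 without WT replicate 3. Over the 6 libraries left out in turn, *Stk4* ran from -0.25 to 0.0012, *Lats1* from -0.14 to 0.26, *Wwtr1* from -0.33 to 0.11, *Tead2* from -0.15 to 0.015, *Tead3* from -0.16 to 0.31, *Tead4* from -0.36 to 0.29, *Mob1b* from -0.34 to 0.024, *Ccn1* from 0.024 to 0.53, *Ccn2* from -0.032 to 0.39 and *Amotl2* from -0.24 to 0.14. The cause was not tested. Low counts limit *Sav1*, *Tead1* and *Tead4* most.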

Other observations

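*Ajuba* and *Axl*, chosen after their values were seen, were lowest in KO replicate 2 in the same way as *Wwtr1* and *Amotl2*. Other Hippo genes were lowest there too, such as *Frmd6* (37.5 CPM), *Vgll4* (31.8 CPM) and *Dchs1* (11.2 CPM). The share of all genes lowest in this library is not given, so the pattern cannot be called particular to these genes. *Ajuba*, a LIM protein that can hold LATS kinases inactive, measured 166.3, 157.5 and 157.9 CPM in WT and 192.8, 116.0 and 212.2 CPM in KO. *Axl*, a receptor tyrosine kinase gene and YAP target, measured 32.6, 26.5 and 40.6 CPM in WT and 45.1, 18.6 and 60.3 CPM in KO. In both genes the other KO libraries were above every WT library. The summed mesenchyme markers were 128 CPM in KO replicate 2 and 1122 and 1129 CPM in the other KO libraries. In WT replicates 1 to 3 these sums were 651.9, 272.1 and 1212 CPM. *Axl* and *Wwtr1* ranked the WT libraries in the same order as these sums, and *Ajuba* and *Amotl2* did not. KO replicate 2 was also lowest for the summed liver, endothelial and blood markers, and highest for the summed endocrine, pancreatic progenitor, gut endoderm and neural markers. The part of these markers in the values was not tested.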
